A study of Mus musculus with 6 samples.

Results

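Trypsinogens are the inactive precursors of trypsin, and 10 mouse genes of this family were followed here in whole pancreas. They were taken by symbol, namely Prss1, Prss2, Prss3, Try4, Try5, Try10, Gm5771, 2210010C04Rik, 1810009J06Rik and Gm2663, and all 10 were found among the 23337 genes of each count table. The control group was 3 libraries of NMRI mice at postnatal day 7 with the genotype Ptf1a cre/+, in which Cre recombinase is made from 1 copy of Ptf1a, a gene of pancreatic progenitors and acinar cells. The mutant group was 3 libraries of NMRI mice of the same age that carried the same Cre allele and the transgene CAG-loxP-STOP-loxP-Prox1-LacZ, so that Cre lets the CAG promoter drive Prox1 and LacZ in those cells and their descendants. Both groups thus have 1 altered copy of Ptf1a, and no library without Cre was analysed here. The series' design text calls the control samples pools and the mutant samples individual pancreata, while the extraction protocol speaks of individual organs throughout, so pooling and genotype cannot be told apart. Nothing states that samples came from separate litters, so p-values measure the spread between these libraries only.

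Acinar cells make trypsinogen with the other digestive enzymes, store it in zymogen granules and release it into the duct. In the intestine enteropeptidase cuts after the lysine that ends a short run of aspartates, and the trypsin so formed activates further trypsinogen and the other zymogens. Activation inside the pancreas damages the organ, and acinar cells therefore also make a trypsin inhibitor and proteases that degrade trypsinogen. Mice carry many trypsinogen genes in a tandem array, whereas most pancreatic enzymes come from 1 or a few genes.

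The family members differ at the very site where the precursor is cut. In the coding sequences of GENCODE M21 on GRCm38, 6 members have 4 aspartate codons before the lysine codon, Gm5771 has 3, 2210010C04Rik has 5, and 1810009J06Rik and Gm2663 have 2. The 60 coding bases around the cut are shown for the genes on which the results below turn, with the aspartate and lysine codons in capitals and the cut at the end of the capitals.
Prss2: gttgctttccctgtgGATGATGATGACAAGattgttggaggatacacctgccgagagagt
Prss1: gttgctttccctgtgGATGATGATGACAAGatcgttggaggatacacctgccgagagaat
Try4: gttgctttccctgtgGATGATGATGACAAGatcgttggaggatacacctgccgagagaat
Try5: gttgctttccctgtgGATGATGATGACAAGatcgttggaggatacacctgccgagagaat
Prss3: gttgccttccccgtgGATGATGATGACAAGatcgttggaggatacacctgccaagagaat
Gm5771: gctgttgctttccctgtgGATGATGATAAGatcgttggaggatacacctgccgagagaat
2210010C04Rik: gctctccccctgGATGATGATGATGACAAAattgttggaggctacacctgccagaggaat
1810009J06Rik: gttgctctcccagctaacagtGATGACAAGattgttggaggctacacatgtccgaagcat
Gm2663: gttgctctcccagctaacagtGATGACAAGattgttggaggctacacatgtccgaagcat
Prss1, Try4 and Try5 have the same letters over this stretch, and so do 1810009J06Rik and Gm2663. Over whole coding sequences of 738 to 744 bases, 1810009J06Rik and Gm2663 were 99.5% identical, Prss1 and Gm5771 97.6%, and Try4 and Try5 97.4%. The gene 2210010C04Rik, usually described as the mouse cationic trypsinogen, was more distant, with 77.4% identity to Gm2663 and 75.0% to Prss2, which encodes an anionic trypsinogen.

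All 10 genes are annotated as protein-coding on chromosome 6 of GRCm38 within 560.3 kb. From the low-coordinate end, 1810009J06Rik lies at chr6:40964754-40968435, Gm2663 at chr6:40995830-40999479 and 2210010C04Rik at chr6:41030268-41035509. After a gap of 267 kb that holds variable segments of the T cell receptor beta locus, the other 7 lie between the start of Try4 at chr6:41302269-41305532 and the end of Prss2 at chr6:41521787-41525079. Between these 2 are Try5 at chr6:41311233-41316841, Try10 at chr6:41354105-41357914, Prss3 at chr6:41373814-41377678, Gm5771 at chr6:41392356-41397230 and Prss1 at chr6:41458932-41463786. Of 47 other annotated genes between the outermost members only Gm5409, an unprocessed pseudogene, and Gm10334, a protein-coding trypsinogen-like gene, were in the count tables.

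Because the copies are alike, a read can match more than 1 of them. All 50-base stretches of the 2210010C04Rik transcripts were its own, and in Prss2 7.83% also occurred in another gene. The share was 40.8% in Try10, 47.6% in Try5, 54.9% in Prss1, 55.4% in Gm5771, 65.6% in Try4, 66.1% in Prss3, 81.5% in 1810009J06Rik and 83.5% in Gm2663. The map of shared stretches shows 2 separate blocks, 1 of 1810009J06Rik with Gm2663 and 1 of the 7 genes from Try4 to Prss2 with their 2 neighbours. How reads with several matches were counted is not given in the sources used here, and Amy2a5, an amylase gene with near-identical copies, had 10 counts in all 6 libraries together. Counts of the 8 genes from Try10 to Gm2663 in this order are therefore uncertain, each apart from its copies, and so are sums that hold them.

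**Figure D1:**
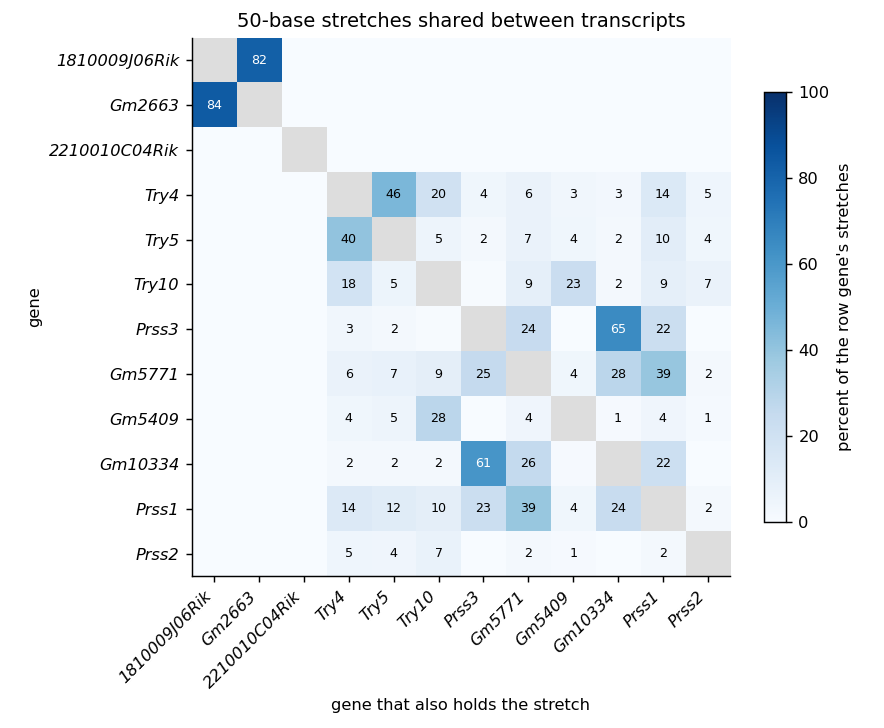
Percent of the 50-base stretches in the annotated transcripts of the gene in each row that also occur in the transcripts of the gene in each column, with genes in order along chromosome 6. The pair 1810009J06Rik and Gm2663 shares over 80% in both directions and nothing with the others, and 2210010C04Rik shares no stretch.

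The stretch upstream of the start was compared as well, since members with like promoters can be set beside members that moved together. RefSeq promoters on GRCm38.p6 matched 7 of the 10 genes, without Try5, Try10 and 1810009J06Rik. The 250 bases before the start are shown for the 2 genes with the largest fall, for 2 that rose, and for Prss2. Capitals mark every CANNTG (the E-box) and TTTCCC (the TC-box) on either strand, the 2 half-sites that the PTF1 complex of acinar cells is known to bind.
Gm5771, plus strand, chr6:41392106-41392355: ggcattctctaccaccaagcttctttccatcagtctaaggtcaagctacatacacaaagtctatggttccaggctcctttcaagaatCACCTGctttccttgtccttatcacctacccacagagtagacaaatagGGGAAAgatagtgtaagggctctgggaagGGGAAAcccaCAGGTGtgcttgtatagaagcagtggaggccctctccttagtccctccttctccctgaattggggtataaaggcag
Prss1, plus strand, chr6:41458680-41458929: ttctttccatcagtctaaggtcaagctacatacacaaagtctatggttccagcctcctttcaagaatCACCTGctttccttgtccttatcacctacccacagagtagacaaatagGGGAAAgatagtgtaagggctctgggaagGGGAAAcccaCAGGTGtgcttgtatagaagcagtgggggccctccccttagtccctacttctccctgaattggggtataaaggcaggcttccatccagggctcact
2210010C04Rik, minus strand, chr6:41035510-41035759: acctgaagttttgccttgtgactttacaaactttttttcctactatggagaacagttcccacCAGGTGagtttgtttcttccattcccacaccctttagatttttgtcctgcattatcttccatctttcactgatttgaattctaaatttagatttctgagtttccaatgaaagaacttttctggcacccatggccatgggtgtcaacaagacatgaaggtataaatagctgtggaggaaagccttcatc
Gm2663, minus strand, chr6:40999480-40999729: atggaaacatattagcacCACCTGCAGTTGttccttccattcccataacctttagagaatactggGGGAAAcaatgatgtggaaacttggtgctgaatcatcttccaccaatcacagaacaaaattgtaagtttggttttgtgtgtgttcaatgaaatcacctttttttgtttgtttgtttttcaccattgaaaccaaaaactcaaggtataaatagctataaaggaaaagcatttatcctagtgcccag
Prss2, plus strand, chr6:41521526-41521775: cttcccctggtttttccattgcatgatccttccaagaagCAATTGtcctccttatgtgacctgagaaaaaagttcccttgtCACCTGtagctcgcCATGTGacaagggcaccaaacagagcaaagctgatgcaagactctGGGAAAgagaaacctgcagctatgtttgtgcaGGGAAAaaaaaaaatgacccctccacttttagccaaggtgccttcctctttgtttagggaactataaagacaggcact
The windows of Gm5771 and Prss1 were 83.7% identical over their alignment, gaps included, and those of 2210010C04Rik and Gm2663 50.4%. The last value is no particular likeness, since the window of Prss2 gave 44.7% to 55.1% with the others. Try4, which also fell, gave 68.6% with Prss1 and 62.0% with Gm5771. An E-box was in all 7 windows against 66.0% of 27025 promoters of the same length. A TC-box was in 4 of 7 (Gm5771, Prss1, Gm2663 and Prss2) against 21.9%. An E-box with at most 15 bases to a TC-box was in the windows of Gm5771 and Prss1 against 2.88% of all promoters. The same 2 windows held AAGGTCA, the core that the acinar factor Nr5a2 is known to bind, against 4.05% of all promoters. The window of Try4 had 0 TC-boxes and 0 such cores, and so had that of Prss3. These are matches of letters in a window and were not tested for binding. The TATA box, searched as TATAAA on either strand like the other motifs, was in all 7 windows against 13.0% of promoters.

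Expression values are CPM, counts scaled to a common library size by the TMM method of edgeR. The libraries held 7304727 to 10773223 counts, and the lowest count of a member in any library was 15. Prox1 was 3.16-fold higher in mutants (log2 fold change 1.67 ± 0.15 SE, edgeR adjusted p = 0.000239), and Ptf1a was at 19.8 ± 1.85 CPM in the controls against 14.9 ± 0.529 CPM in the mutants (SD, n = 3, edgeR adjusted p = 0.161). Of 13017 genes tested with edgeR, 268 passed an adjusted p of 0.05, 71 of them higher and 197 lower in mutants. With library totals as the scaling the split was 190 higher and 130 lower and the median of all genes moved from 0.00 to 0.17 on the log2 scale, and with totals that left out the members and 14 acinar markers it was 324 and 139 with a median of 0.20. Control 1 stood apart from the other controls, with a chi-square per degree of freedom of 20.5 and 18.9 against controls 2 and 3, where those 2 gave 6.14. It was also the only library with Xist RNA in number, 7110 counts against at most 4 in each of the other 5, and the part of that difference in the results was not tested.

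The summed output of the 10 genes was higher in every mutant library than in any control library. It was 85753, 75616 and 82841 CPM in controls 1 to 3 and 99993, 89737 and 97534 CPM in the mutants 1 to 3. The mean was 81403 ± 5219 CPM (SD, n = 3) in controls and 95755 ± 5354 CPM in the mutants, a ratio of 1.18. The groups did not overlap, and the lowest mutant, mutant 2, was close above the highest control, control 1. No p is given for the sum, since its members were chosen with results of these data known.

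As a plain share of all counts, which amounts to scaling by library totals, trypsinogens took 7.81%, 7.19% and 8.001% in controls and 10.5%, 10.01% and 9.84% in mutants. The mean share was 7.67 ± 0.42% in controls and 10.1 ± 0.37% in mutants, a ratio of 1.32. With that scaling the median log2 fold change of all genes was higher too, at 0.17 in place of 0.00 with TMM. Wilson intervals at 95% for these shares and for the shares within the family below had a half-width of at most 0.124 points, which covers counting error only. Against 10 other acinar enzyme genes, trypsinogens made up 19.6%, 17.9% and 20.2% of the joint counts in controls and 24.8%, 25.7% and 23.5% in mutants, again without overlap. In these bulk samples more trypsinogen RNA per cell and more trypsinogen-making cells cannot be told apart.

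Behind this modest difference in the sum, single genes differed by up to 342-fold, and in both directions. All 10 genes passed the filter on low counts, and 6 of 10 passed the test, against 2.06% of all genes tested. Of these, 3 rose (1810009J06Rik, Gm2663 and 2210010C04Rik, with 0.545% of all genes higher) and 3 fell (Gm5771, Prss1 and Try4, with 1.51% of all genes lower). The groups did not overlap in 8 of 10 members, 4 in each direction, against 19.0% of all genes. The median log2 fold change of the 10 was -0.29 beside 0.00 over all genes. With a robust dispersion only the 3 that rose were called, and 3 members were called when control 2, mutant 1 or mutant 3 was left out.

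**Figure D2:**
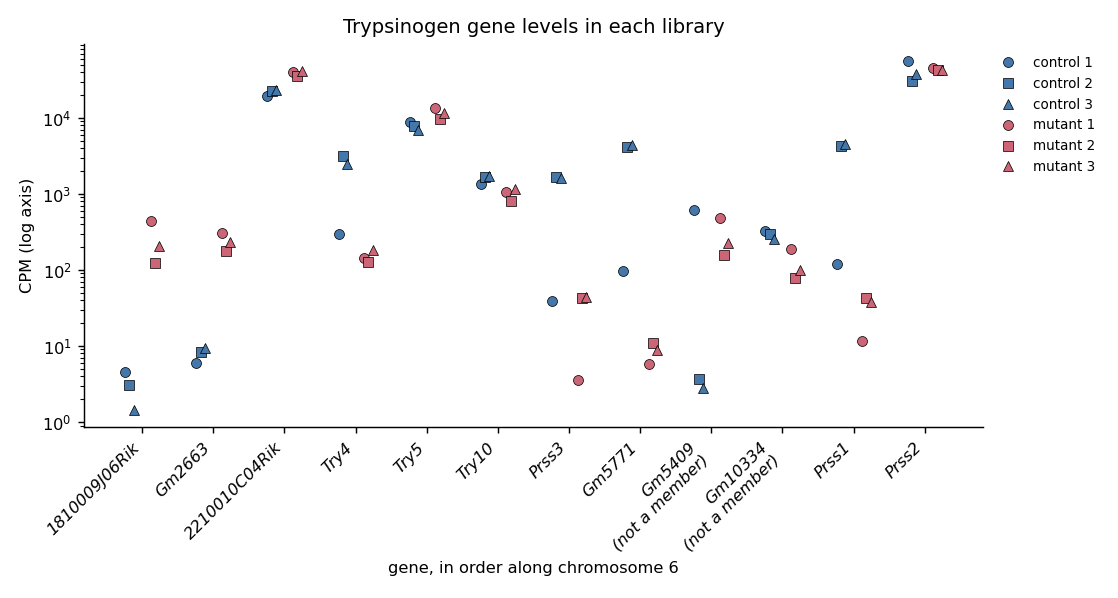
CPM on a log axis of the 10 trypsinogen genes and of 2 neighbouring genes that are not members, in order along chromosome 6, with 1 point for each library, controls in blue and mutants in red. Mutants lie above all controls in the 3 leftmost genes, and in Try4, Prss3, Gm5771 and Prss1 control 1 lies far below controls 2 and 3.

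The 3 genes that rose are the 3 at the low-coordinate end of the array. The largest ratio was that of 1810009J06Rik, a minor member of the family with 2 aspartate codons before the cut. It was at 4.51, 3.09 and 1.44 CPM in controls, from 15 to 30 counts, and at 446, 125 and 205 CPM in the mutants, from 1080 to 4688 counts. The lowest mutant thus stood far above the highest control, although mutants differed among themselves by over 3 times. The log2 fold change was 6.50 ± 0.55 (SE, n = 3, edgeR adjusted p = 0.000168).

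Its near-identical copy Gm2663 was at 6.01, 8.40 and 9.51 CPM in the controls against 306, 178 and 233 CPM in the mutants. All mutants again stood far above all controls, and the log2 fold change was 4.88 ± 0.24 (edgeR adjusted p = 5.33e-06). The deposited counts of both copies were then added as 1 gene, which restores no read left uncounted because it matched both. The pair was at 10.5, 11.5 and 10.96 CPM in the controls against 752, 303 and 438 CPM in the mutants. The log2 fold change of the pair was 5.498 ± 0.33 (edgeR adjusted p = 2.23e-05). The 3 controls were close together for the pair, and control 1 did not stand apart there. Both genes were called in each alternative in which they were fitted. They remained a small part of the sum, at most 0.446% and 0.306% of trypsinogen counts in a library.

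The third of these genes, 2210010C04Rik, was abundant in both groups. It was at 19669, 22550 and 23331 CPM in the controls against 39778, 35822 and 41271 CPM in the mutants, a 1.78-fold rise (log2 fold change 0.83 ± 0.14 SE, edgeR adjusted p = 0.0119). The lowest mutant was well above the highest control, and none of its 50-base stretches was found in the annotated transcripts of another gene. The call was lost without control 2, mutant 1 or mutant 3 (adjusted p from 0.0537 to 0.0675 with edgeR), with log2 fold changes between 0.79 and 0.86.

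Prss2, the most abundant member by counts, gave no such difference. It was at 55221, 30185 and 37712 CPM in the controls against 44682, 42786 and 42642 CPM in the mutants. The mutants were close together and lay inside the range of the controls, whose highest was control 1. The means were 41039 ± 12845 CPM (SD, n = 3) and 43370 ± 1138 CPM (log2 fold change 0.08 ± 0.20 SE, edgeR adjusted p = 0.927). All mutants were above controls 2 and 3. Without control 1 the log2 fold change was 0.35 ± 0.14 and again did not pass (edgeR adjusted p = 0.325).

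Try5, a further abundant member, was at 8935, 7891 and 6954 CPM in the controls against 13568, 9784 and 11744 CPM in the mutants. Every mutant was above every control, yet the log2 fold change of 0.56 ± 0.16 (SE) missed the threshold (edgeR adjusted p = 0.147). It passed with library totals as the scaling (0.0214), with totals without members and acinar markers (0.0262), without mutant 2 (0.0422) and by DESeq2 (DESeq2 adjusted p = 0.00173). Try10 was at 1364, 1681 and 1725 CPM in the controls against 1047, 818 and 1165 CPM in the mutants, lower in all mutants than in any control. Its log2 fold change of -0.65 ± 0.16 did not pass with edgeR (adjusted p = 0.0863) and passed with DESeq2 (adjusted p = 0.000237).

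The 3 genes that fell lie in the high-coordinate block, and in all 3 of them control 1 was far below the other controls. Gm5771, the member with 3 aspartate codons, was at 97.7, 4187 and 4443 CPM in the controls against 5.71, 10.9 and 8.88 CPM in the mutants. Even control 1 was 11.5 times the mutant mean, and the groups did not overlap. The log2 fold change was -8.42 ± 1.22 (SE, n = 3, edgeR adjusted p = 0.00577).

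Prss1, whose coding sequence is closest to that of Gm5771, was at 118, 4304 and 4557 CPM in the controls against 11.5, 42.6 and 38.1 CPM in the mutants. Here control 1 was 3.84 times the mutant mean, and the log2 fold change was -6.61 ± 1.15 (edgeR adjusted p = 0.0152). The ratio of Gm5771 to Prss1 counts was 0.827, 0.973 and 0.975 in controls and 0.496, 0.256 and 0.233 in mutants. The 2 genes were thus counted at nearly the same level in controls, while in mutants the ratio was lower in each library than in any control. The two-sided exact permutation p was 0.1, the smallest that 3 against 3 allow, so this test cannot decide on the difference.

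Try4, the closest copy of Try5, was at 298, 3143 and 2467 CPM in the controls against 145, 128 and 183 CPM in the mutants. Control 1 was 1.96 times the mutant mean, and the log2 fold change was -3.70 ± 0.66 (edgeR adjusted p = 0.0182). The calls of Prss1 and Try4 were lost without control 2, control 3, mutant 1 or mutant 3, with edgeR adjusted p up to 0.0819 for Prss1 and 0.104 for Try4. When edgeR estimated the dispersion robustly, adjusted p came to 0.177 in Gm5771, 0.246 in Prss1 and 0.250 in Try4.

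Prss3 was likewise high in controls 2 and 3 alone but did not pass. It was at 39.5, 1664 and 1641 CPM in the controls against 3.52, 42.8 and 43.8 CPM in the mutants, and control 1 lay inside the range of the mutants. The log2 fold change was -5.22 ± 1.22 (edgeR adjusted p = 0.0656), and without control 1 it was -5.79 ± 0.73 (edgeR adjusted p = 0.00685). Prss3 also passed by DESeq2 (DESeq2 adjusted p = 0.0174) and without a filter on low counts (edgeR adjusted p = 0.0216). Counted together with Gm10334, with which it shares 65.1% of its stretches, it was at 361, 1957 and 1893 CPM in the controls against 191, 121 and 144 CPM in the mutants, and this pair passed the test (log2 fold change -3.21 ± 0.52, edgeR adjusted p = 0.0106).

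**Figure D3:**
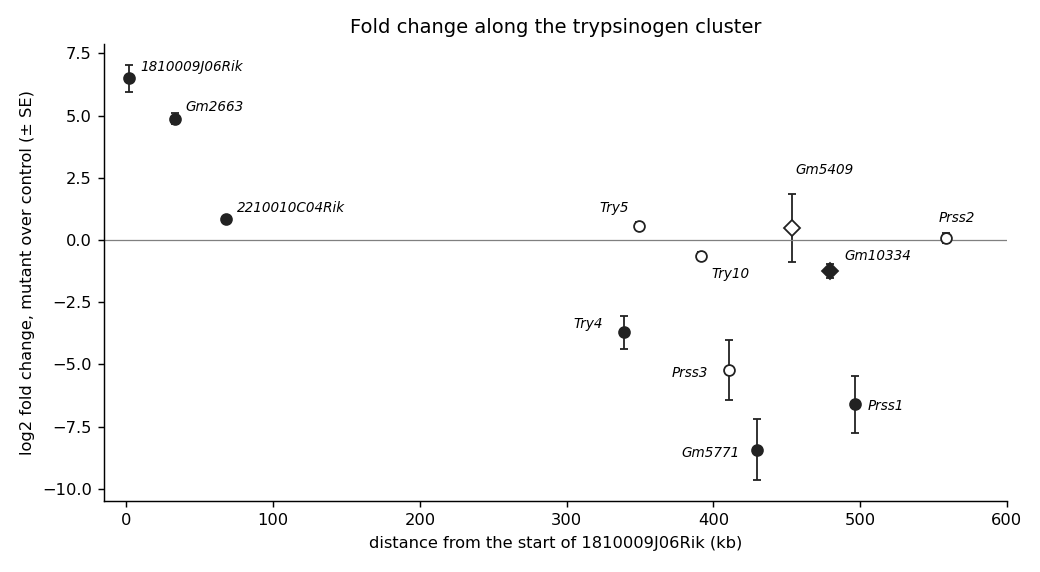
Log2 fold change of mutant over control with its standard error against distance in kb along chromosome 6 from the start of 1810009J06Rik, with circles for members, diamonds for the 2 neighbouring genes, and filled symbols for an edgeR adjusted p under 0.05. The 3 genes in the first 71 kb are above 0, and the 4 lowest values, those of Gm5771, Prss1, Prss3 and Try4, are all in the second block.

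The 2 neighbouring genes completed the picture of the second block. Gm10334 was at 322, 293 and 252 CPM in the controls against 187, 78.4 and 101 CPM in the mutants, a 2.37-fold fall (log2 fold change -1.24 ± 0.27, edgeR adjusted p = 0.0476), with control 1 the highest of all. That call was lost by DESeq2 (adjusted p = 0.0886), under both scalings by totals, with a robust dispersion, and without any 1 library other than mutant 1. The pseudogene Gm5409 was at 617, 3.65 and 2.79 CPM in the controls against 480, 159 and 225 CPM in the mutants. Control 1 here stood with the mutants, and the log2 fold change of 0.48 ± 1.37 did not pass (edgeR adjusted p = 0.938), while without control 1 it was 6.49 ± 0.59 (edgeR adjusted p = 0.00115).

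Control 1 was therefore compared with the other 2 controls gene by gene. On log2 CPM it was nearer to the mean of the mutants than to that of controls 2 and 3 in 5 members, Prss1, Prss2, Prss3, Try4 and Gm5771. In Prss3 it was 5.38 from the other controls and 1.08 from the mutants, and in Gm5771 it was 5.46 from the other controls and 3.57 from the mutants. It was nearer to the other controls in the other 5, including all 3 genes at the low-coordinate end. In 1810009J06Rik it was 1.09 from the other controls and 5.64 from the mutants. Without control 1, the 6 called members were all called again and Prss3 was added.

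The share of single genes in trypsinogen RNA was compared next. 2210010C04Rik made up 22.9%, 29.8% and 28.2% of trypsinogen counts in controls and 39.8%, 39.9% and 42.3% in mutants. Prss2 made up 64.4%, 39.9% and 45.5% in controls and 44.7%, 47.7% and 43.7% in mutants, with the mutants inside the range of the controls. The ratio of Prss2 to 2210010C04Rik counts was 2.81, 1.34 and 1.62 in controls and 1.12, 1.19 and 1.03 in mutants. It was lower in every mutant, with a two-sided exact permutation p of 0.1. That is the smallest p that 3 against 3 allow, so the test could not have passed 0.05. By the same exact permutation, p was 0.8 for the share of Prss2 and 0.2 for the ratio of Gm2663 to 1810009J06Rik. Try5 made up 9.75 ± 1.17% in controls and 12.2 ± 1.34% in mutants.

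The 6 members with at least 50% shared stretches together made up 0.657%, 17.6% and 15.8% of trypsinogen counts in controls and 0.918%, 0.588% and 0.730% in mutants. Control 1 and the 3 mutants were alike in this summed share, and controls 2 and 3 stood apart from all of them. The make-up of the share was not alike, since it holds genes that rose and genes that fell. 1810009J06Rik and Gm2663 gave 0.00526% and 0.00701% in control 1, against 0.140% to 0.446% and 0.198% to 0.306% in the mutants. Prss1 and Gm5771 gave 0.138% and 0.114% in control 1, against at most 0.0475% and 0.0122% in a mutant. The other 4 members (Prss2, 2210010C04Rik, Try5 and Try10) summed to 85189, 62307 and 69721 CPM in the controls against 99075, 89210 and 96822 CPM in the mutants, a ratio of 1.31. By position, the 3 low-coordinate genes summed to 21861 ± 1929 CPM in the controls against 39455 ± 2943 CPM in the mutants (SD, n = 3), without overlap. The 7 high-coordinate genes summed to 59542 ± 6510 CPM in the controls against 56300 ± 2954 CPM in the mutants, and these ranges overlapped. On the TMM scale the net difference in the total of all 10 genes thus lay in the low-coordinate end, and there almost wholly in 2210010C04Rik. Within the 7 high-coordinate genes, higher means of Try5 (3772 CPM) and Prss2 (2331 CPM) were offset by lower ones. These were Prss1 (-2962 CPM), Gm5771 (-2901), Try4 (-1818), Prss3 (-1085) and Try10 (-580). Of these, Prss1, Gm5771, Try4 and Prss3 were high in controls 2 and 3 only.

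**Figure D4:**
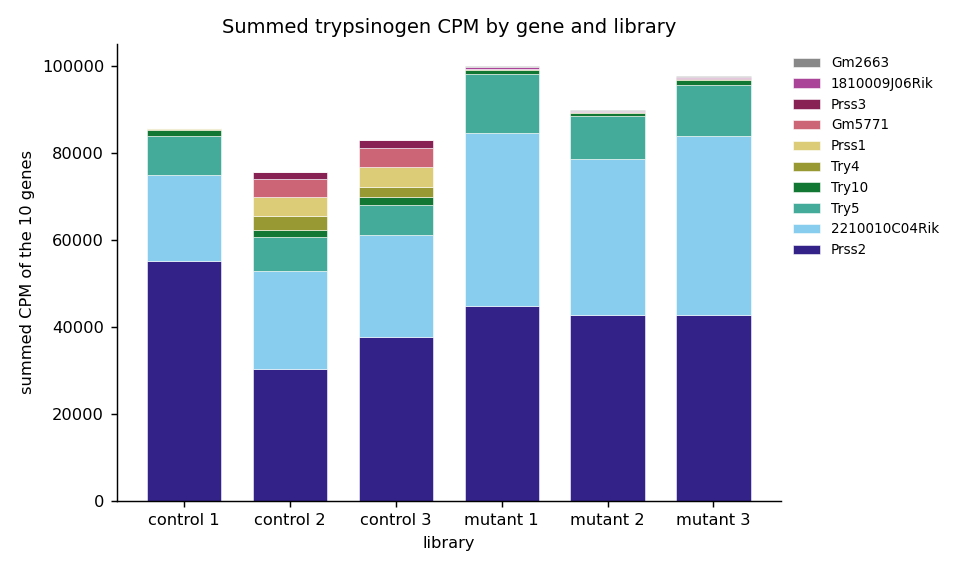
Summed CPM of the 10 trypsinogen genes in each library as stacked bars, 1 colour for each gene. The bars of the mutants are taller (89737 to 99993 CPM against 75616 to 85753 CPM), the 2210010C04Rik part is larger in all mutants, and the parts of Try4, Prss1, Gm5771 and Prss3 are visible in controls 2 and 3 only.

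Levels of different genes were compared per kilobase of annotated exon. In controls Prss2 was first at 50355 ± 15761 CPM per kb (SD, n = 3), then came 2210010C04Rik at 10201 ± 900.4 and Try5 at 8788 ± 1099, whose libraries overlapped. Prss1, Gm5771, Try4, Try10 and Prss3 followed between 3718 and 1356 CPM per kb, in an order that their spread does not separate. Gm2663 (9.25 ± 2.07) and 1810009J06Rik (3.42 ± 1.74) were last.

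In mutants the order on the same scale was Prss2 at 53215 ± 1397 CPM per kb, 2210010C04Rik at 18187 ± 1315, Try5 at 12970 ± 2098 and Try10 at 1174 ± 205. The next were 1810009J06Rik (293 ± 190), Gm2663 (277 ± 74.5) and Try4 (189 ± 35.6), whose neighbours in this order overlap. Prss1 (38.2 ± 20.9), Prss3 (36.6 ± 28.0) and Gm5771 (10.7 ± 3.28) were last, and the range of Prss3 covered that of Gm5771. The 2 least expressed members of the controls were thus above Prss1, Prss3 and Gm5771 in the mutants. Whole exon lengths were used here, although shared stretches ran from 0% in 2210010C04Rik to 83.5% in Gm2663. The order of genes in both groups may therefore depend on how reads with several matches were counted. The exons of 2210010C04Rik are annotated as 2142 bases and those of the others as 798 to 902, so its value per kb is lower than it would be per coding base.

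Genes that control trypsinogen were read from a list of 9 symbols, 2 of them (Spink1 and its older symbol Spink3) for 1 gene. With edgeR 0 of the 7 tested passed, against 2.06% of all genes tested. At an unadjusted p under 0.05 there were 2 of 7 against 12.8% of all genes tested, DESeq2 called 0, and the median log2 fold change was 0.08. Ctrc, chymotrypsin C, which degrades trypsinogen, was at 138, 199 and 242 CPM in the controls against 359, 309 and 502 CPM in the mutants. It was higher in every mutant and just missed the threshold (log2 fold change 1.02 ± 0.22, edgeR adjusted p = 0.0524). It passed under both scalings by totals, without a filter and without mutant 2 (edgeR adjusted p between 0.0208 and 0.0244).

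The trypsin inhibitor gene, in the tables as Spink3, was at 1464 ± 262 CPM in the controls against 1345 ± 28.4 CPM in the mutants (SD, n = 3), with the groups overlapping. The log2 fold change of Serpini2, an acinar serpin, was 0.08 ± 0.13 (SE). Among the lysosomal proteases, Ctsb, which can activate trypsinogen, had 0.20 ± 0.11, Ctsd, which activates cathepsin B, had 0.20 ± 0.11, and Ctsl, which degrades trypsinogen, had -0.03 ± 0.13. F2rl1, a receptor that trypsin cleaves, was at 3.87 ± 0.517 CPM in the controls against 2.51 ± 0.272 CPM in the mutants (log2 fold change -0.63 ± 0.25, edgeR adjusted p = 0.308). Tmprss15, the enteropeptidase of the intestine, had 2 counts in 1 control and 0 in the other libraries and was not tested.

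The patterns most like those of the members were sought among 10025 other genes with a mean of at least 5 CPM, by the mean absolute difference of centred log2 CPM over the 6 libraries. Nearest to Gm5771 was Gp2, a zymogen granule membrane glycoprotein, which was 1.57 away on the log2 scale. Gp2 was at 459, 636 and 795 CPM in the controls against 9.14, 13.7 and 12.2 CPM in the mutants, so control 1 was the lowest control there and far above the mutants. Gp2 was also nearest to Prss1 (1.31), and the nearest to Try4 was Tspan1 (0.805), a membrane protein of epithelia.

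Nearest to Gm2663 was Fgf21, a metabolic hormone, at a distance of 0.460, and nearest to 1810009J06Rik was Serpina6, corticosteroid-binding globulin, at 0.533. Serpina6 was at 1.20, 0.663 and 1.15 CPM in the controls against 181, 80.6 and 82.8 CPM in the mutants, with mutant 1 the highest as in both members. For 2210010C04Rik the nearest were 2810432L12Rik, Neurl3 and Trim50, all within 0.0837, and for the sum 0610010F05Rik, Wdr7 and Wdr35, all within 0.0291. Such distances say how alike the values are in these 6 libraries and nothing more.

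Acinar markers other than trypsinogens gave the setting. Of 14 listed, 13 were tested, 0 rose and 1 fell, with a median log2 fold change of -0.24. Over all genes tested 0.545% rose and 1.51% fell, so few calls among 13 say little. That 1 was Cel, the bile salt-dependent lipase (-0.93, edgeR adjusted p = 0.00881). Their summed level was 328085 to 353149 CPM in the controls against 259810 to 318468 CPM in the mutants, lower in all mutants on this scale. As a plain share of all counts, a comparison added after the data were seen, the acinar markers took 31.7% to 33.0% in controls and 29.0% to 32.1% in mutants, and these ranges overlapped. Ctrb1, the most abundant chymotrypsinogen, was at 130163 to 146640 CPM in the controls against 121674 to 150817 CPM in the mutants.

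Among markers of other cells, the summed levels of duct, adipocyte and intestine genes were lower in all mutants, and those of islet, T lymphocyte, macrophage, fibroblast and erythroid genes overlapped between the groups. As plain shares of all counts the same held, except that macrophage genes were higher in all mutants (0.0140% to 0.0267% against 0.00872% to 0.0138%). Duct markers summed to 472 to 497 CPM in the controls against 324 to 406 CPM in the mutants (0 of 6 called), and islet markers to 2979 to 4855 CPM and 3049 to 3350 CPM (0 of 6 called). Over all genes tested 2.06% were called. Since the array lies within the T cell receptor beta locus, T lymphocyte genes were also read, and the 4 in the tables summed to 0.601 to 4.90 CPM in the controls against to 0.190, 21.1 and 0.399 CPM in the mutants 1 to 3. Mutant 2 was thus the highest for T lymphocyte genes, and only 1 of the 4 passed the filter on low counts. Of 5 intestine markers, Fabp2, Cdx1 and Cdx2 were at 0 in all libraries, and Vil1 fell (-1.44, edgeR adjusted p = 0.00336). Macrophage genes summed to 95.8 to 143 CPM in the controls against 139 to 239 CPM in the mutants, fibroblast genes to 2936 to 4920 CPM and 3117 to 4522 CPM, and erythroid genes to 13.8 to 75.7 CPM and 9.62 to 24.8 CPM (0 called in each). Adipocyte genes summed to 69.8 to 122 CPM in the controls against 39.3 to 55 CPM in the mutants, with Fabp4 called lower, and the part of any of these markers in the trypsinogen values was not tested.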

How the data were processed

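RNA of whole pancreas was sequenced in 3 control and 3 mutant libraries, grouped by the sample titles. The deposited tables hold raw counts, whole numbers with 1 row per symbol, that the authors had not normalized. The submitters' processing notes list the build mm10 and the tools HTSeq 0.6.1p1, STAR, cutadapt 1.13 and DESeq2 without roles. Annotation and strand setting: not given in the sources used here, nor is the handling of reads with several matches.

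All 23337 genes were read, filterByExpr left 13017, and edgeR 4.0.16 in R 4.3.3 fitted a quasi-likelihood model with TMM scaling and no covariate, with Benjamini-Hochberg adjustment over all genes tested and a threshold of 0.05. Standard errors are the absolute log2 fold change over the square root of F. DESeq2 1.42.0 was an alternative, beside other scalings, no filter, a robust dispersion, a replicate block, collapsed copies and leaving out each library. The fit was tested on simulated data. Shares and ratios were compared by exact permutation in scipy 1.17.1, which cannot give a p under 0.1 for 3 against 3. Within-group chi-square per degree of freedom over genes with at least 20 counts was 5.83 to 20.5, so no libraries of a group were copies of each other. That check does not look for outliers, and all libraries were kept, control 1 among them.

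Shared stretches, positions and coding sequences came from GENCODE M21 and promoters from RefSeq. The text names all members, the 9 regulators, genes within the array with at least 10 counts, the 3 genes nearest in pattern to the sum and to each called member (of which the text gives the first or all), Prox1, and lists of cell type markers. Amy2a5, Gp2 and other markers named singly were picked after their values were seen. The members and lists were chosen with earlier results of these data known.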

Additional observations from a re-analysis of the deposited data

How the results depend on the processing

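With a robust dispersion 3 members were called in place of 6, and leaving out 1 library gave 3 to 7. DESeq2 called 9. Over all genes, 463 in place of 268 were called with totals without members and acinar markers, and 125 to 301 with 1 library left out. The share of called genes that was higher went from 26.5% to 59.4% with library totals and to 70.0% with totals without members and acinar markers. Of the regulators, 1 (Ctrc) passed with library totals, with totals without members and acinar markers, without a filter and with the replicate block, and 0 to 1 with 1 library left out. The log2 ratio of the sum, 0.23, was 0.40 with library totals, 0.43 with totals without members and acinar markers, 0.39 without the 6 members of shared sequence and 0.36 as a share of acinar enzyme counts, higher in mutants each time, and between 0.18 and 0.29 with 1 library left out. The 6 members left out had a mean of 8997 CPM in controls and 719 CPM in mutants. The ratio without them therefore had to be larger and is no separate check of the sum. The cause of the other shifts was not tested. Estimates of genes that did not pass changed sign as follows. Prss2 was at -0.10 without control 2 and at most at 0.35, without control 1, with 1 library left out. Gm5409 was at -0.10 without control 2, control 3 or mutant 1 and ranged up to 6.49. Spink3 was at 0.053 and 0.083 under the 2 scalings by totals, and from -0.20 to 0.035 with 1 library left out. Ctsl was at 0.15 and 0.18 under those scalings, and from -0.14 to 0.050 with 1 library left out. With the replicate number as a block 6 members were called, 5 of them the same, as 2210010C04Rik was lost (edgeR adjusted p = 0.135) and Prss3 gained. Libraries of the same number did not deviate together (r = 0.05, -0.02 and -0.04 for numbers 1 to 3), and not every library correlated best with its own number. Where 1 library is left out, that group keeps 2. Counts of at most 99 limit the control values of 1810009J06Rik and Gm2663.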
